A study of Mus musculus with 29 samples.

Results

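Neat1, Malat1 and Meg3 are long noncoding RNAs best known from the cell nucleus, and their polyadenylated 3′ ends were followed here through fractions of mouse C2C12 cells. The 3 genes were chosen by symbol from the 17005 gene symbols of a table of poly(A) sites, and they held 103 of its 125369 site entries. Neat1 is the scaffold on which paraspeckles, nuclear bodies that hold RNA-binding proteins, are built. Malat1 gathers in nuclear speckles, which store splicing factors, and Meg3 is a maternally expressed RNA of the imprinted Dlk1-Dio3 region. None of them is known as a template for a long protein. Neat1 is made as a short RNA with a poly(A) tail and as a long RNA whose 3′ end is cut by RNase P and closed by a triple helix. The main form of Malat1 ends in the same way, so an assay that selects poly(A) tails counts the tailed forms of both RNAs only.

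C2C12, an established line of mouse myoblasts, turns into muscle cells in low serum, and every sample came from this line. All 26 3′ end libraries were made with 3′READS+, which sequences the piece of a transcript next to its poly(A) tail. The gradient experiment had 16 libraries in 8 groups of 2. The groups were differentiating or proliferating cells, their membrane or cytosol fraction, and the polysome or monosome part of a gradient. These parts are named after several ribosomes or a single ribosome on an RNA. Whether the RNAs followed here carried ribosomes in either part was not tested. Another 8 libraries came from proliferating cells that were untreated or received puromycin, which releases growing protein chains from ribosomes, at 100 µg/ml for 0, 30 or 60 min, with 1 membrane and 1 cytosol library for each exposure. A membrane and a cytosol library of whole fractions of proliferating cells completed the assay. Proliferating cells were labelled as grown in 10% fetal bovine serum. The label of the 4 differentiating polysome libraries named 2% horse serum, whereas that of the 4 differentiating monosome libraries named 10% fetal bovine serum. RNA of the gradient libraries was extracted with phenol and chloroform and that of the others with TRIzol.

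Libraries held 2964852 to 11631401 reads, and levels are given as CPM, the reads of a gene scaled to a common library size. Nothing in the labels ties the 2 replicates of a group to different cultures, and the p-values therefore reflect the variation among these libraries, possibly technical alone. The states differed in their markers whatever the serum label said. Myog, a transcription factor of muscle differentiation, stood at 69.8 to 506 CPM in the 4 differentiating monosome libraries and at 0.187 to 3.49 CPM in the 4 proliferating ones. Mymk was not listed. The myoblast marker Des was found in every library, and the lineage markers Pecam1, Ptprc, Krt18, Alb and Sox10 had 0 to 7 reads over all libraries, while the adipocyte markers Pparg and Adipoq had 83 and 27. Cd34, also known from muscle stem cells, reached 407 CPM.

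All sites are given on genome build mm9. Neat1 had 25 listed sites on chromosome 19 with 16697 reads, and 99.9% of these reads lay on the minus strand, in the 3050 nt between positions 5842307 and 5845357. Malat1, also on chromosome 19, had 62 listed sites with 601 reads, of which 98.5% fell on the minus strand between positions 5795690 and 5802593. The nearest listed minus-strand sites of the 2 RNAs were 39714 nt apart. Meg3 had 16 listed sites on the plus strand of chromosome 12, between positions 110784350 and 110806795, with 12 reads in all. No site of the 3 genes shared its position with another symbol. No annotation of that build was used, so exons and gene ends are not given. Neat1 and Malat1 passed the filter on low counts in both fits, and Meg3 did not.

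Neat1 was enriched in membrane over cytosol in both cell states. In proliferating cells, it stood at 47.8 and 15.9 CPM in membrane polysomes, against 3.44 and 1.31 CPM in cytosol polysomes. In the monosome part it reached 624 and 291 CPM in membrane libraries, against 16.1 and 7.73 CPM in cytosol libraries. Within each gradient part every membrane library was above every cytosol library, and how many of all genes do so was not counted. The log2 fold change over both parts was 4.23 (SE 0.68; adjusted p = 0.000365, edgeR quasi-likelihood F test with Benjamini-Hochberg adjustment over all genes), which ranked 57 from the highest of 11176 genes. Of all genes tested, 34.8% were called in this comparison (6273 genes instead of 3887 with replicate number as a block), and 23.2% were called higher in membrane.

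In differentiating cells, Neat1 stood at 6.39 and 22.6 CPM in membrane polysomes, against 1.20 and 3.40 CPM in cytosol polysomes. The monosome libraries held 23.9 and 160.0 CPM in membrane, against 4.18 and 7.42 CPM in cytosol. Again no cytosol library reached a membrane library of the same gradient part, and genes with this pattern were not counted here either. The pair of membrane monosome libraries lay 6.69-fold apart, the widest gap of any Neat1 group. The log2 fold change was 3.04 (SE 0.67, edgeR adjusted p = 0.00636), in a comparison that called 19.7% of genes (4850 genes instead of 2200 with the block) and 14.2% as higher in membrane. Without replicate 2 of the membrane monosomes the value was 2.02, and it was called whichever library was left out. Across the 8 membrane and cytosol pairs of matching part and number, membrane exceeded cytosol 5.33-fold to 38.7-fold. The fraction difference was smaller in differentiating than in proliferating cells by 1.19 on the log2 scale (SE 0.90), which did not pass the test (edgeR adjusted p = 0.985), although with replicate number as a block the difference was -1.36 (adjusted p = 0.0279). The test of this difference called 0 of 11176 genes with edgeR, 0% of the table, whereas 669 genes had an unadjusted p under 0.05, DESeq2 called 14 and the blocked fit 514.

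Malat1 was also higher in membrane, by a smaller factor. In proliferating cells, Malat1 had 2.43 and 3.42 CPM in membrane polysomes, against 1.38 and 0.493 CPM in cytosol polysomes. Its monosome levels were 33.9 and 21.5 CPM in membrane, against 7.03 and 4.86 CPM in cytosol. The groups did not overlap within a part, but the share of all genes without such overlap was not counted. The log2 fold change was 1.70 (SE 0.40, edgeR adjusted p = 0.00478), at rank 1783 from the highest. That comparison called 34.8% of genes, and 23.2% as higher in membrane. In differentiating cells, it had 1.36 and 0.734 CPM in membrane polysomes, against 0.514 and 0.340 CPM in cytosol polysomes. The monosome libraries of that state held 5.26 and 2.92 CPM in membrane, against 2.09 and 2.02 CPM in cytosol. The groups did not overlap within a part here either, and the share of all genes without overlap was again not counted. The difference of 0.83 (SE 0.47) was not called (edgeR adjusted p = 0.240), and the lowest of these levels rest on 2 and 3 reads. Of all genes, 19.7% were called in that comparison and 14.2% as higher in membrane. The state difference of the fraction effect was -0.87 (SE 0.64, edgeR adjusted p = 0.972).

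**Figure D1:**
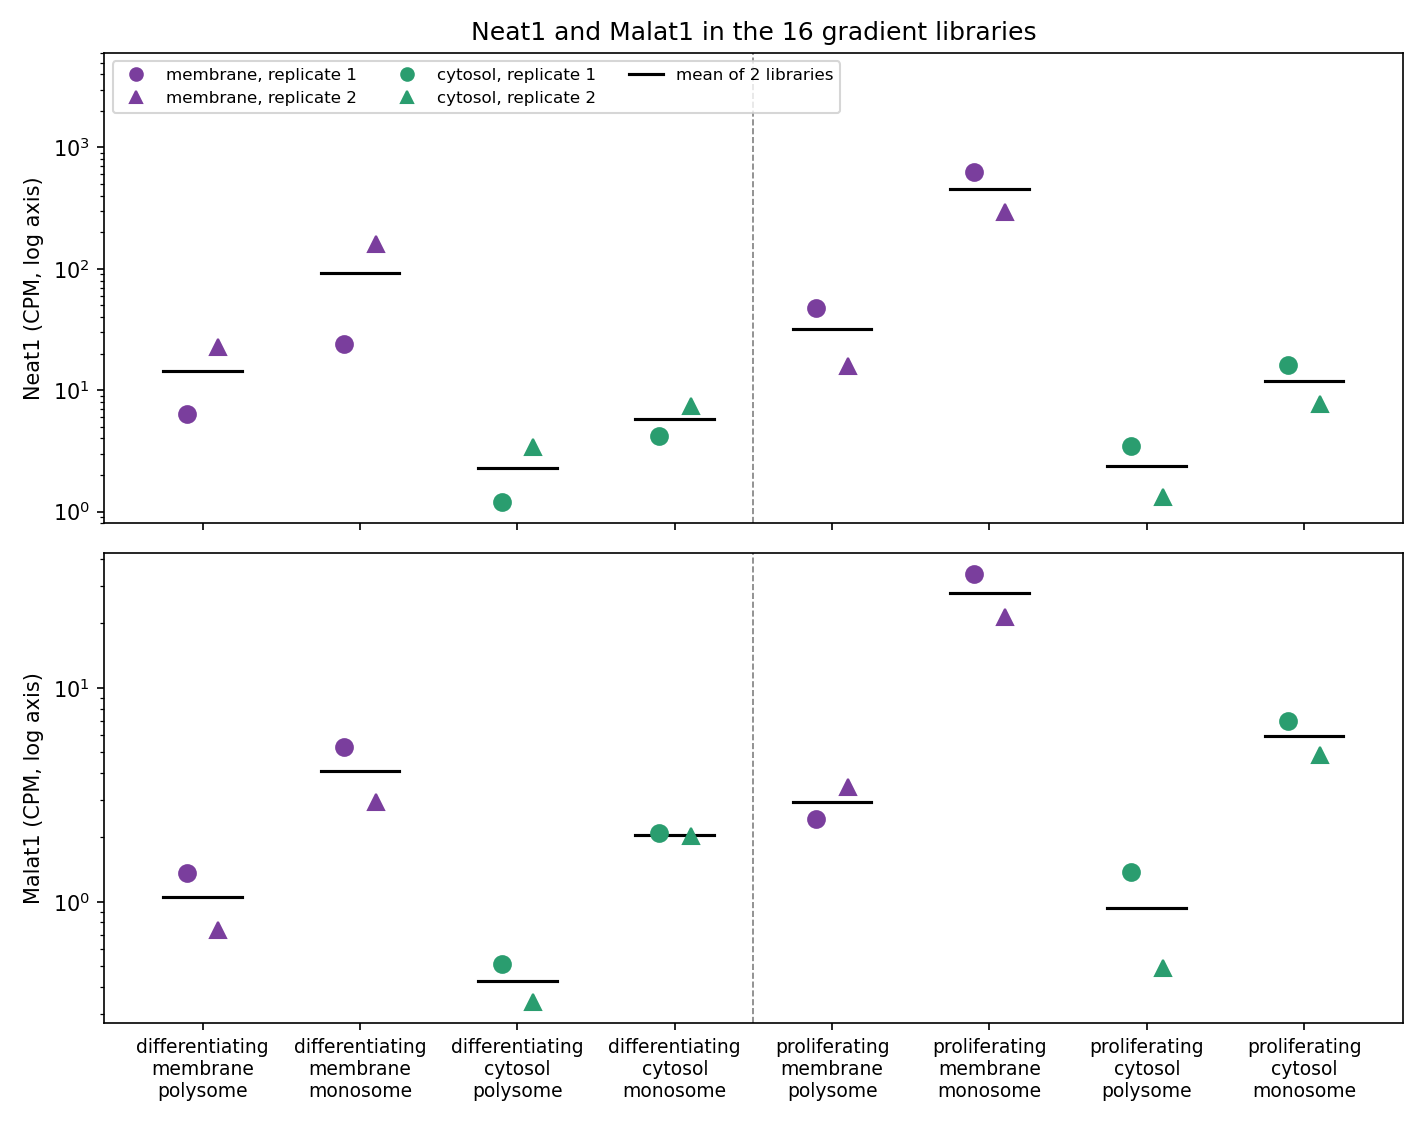
CPM of Neat1 (upper panel) and Malat1 (lower panel) on log axes in the 16 gradient libraries, with differentiating groups on the left and proliferating groups on the right of the dashed line. Circles are replicate 1, triangles replicate 2, and bars the mean of 2 libraries. The membrane monosomes of proliferating cells stand highest for both RNAs, with Neat1 at 624 and 291 CPM.

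The order of the Neat1 group means followed the fraction first. Membrane monosomes of proliferating cells were at the top, at 458 ± 235 CPM (SD, n = 2), followed by membrane monosomes of differentiating cells at 91.9 ± 96.2 CPM and membrane polysomes of proliferating cells at 31.9 ± 22.6 CPM. Membrane polysomes of differentiating cells averaged 14.5 ± 11.5 CPM, cytosol monosomes of proliferating cells 11.9 ± 5.95 CPM and cytosol monosomes of differentiating cells 5.80 ± 2.29 CPM. The cytosol polysome groups were lowest, at 2.30 ± 1.55 CPM in differentiating cells and 2.38 ± 1.50 CPM in proliferating cells (SD, n = 2 each). The libraries of the top group were clear of the next group, and those of the cytosol monosomes of differentiating cells lay between their neighbours without overlap, by a narrow margin. All other neighbours in this order had overlapping libraries. The spread between replicates had a pattern of its own. The library numbered 1 was the higher one in all 4 proliferating groups and the lower one in all 4 differentiating groups, by 1.78-fold to 6.69-fold.

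Log2 fold changes of polysomes over monosomes were negative for both RNAs in every fraction and state. Without a replicate block the difference was called for Malat1 in 3 of 4 comparisons and for Neat1 in 0 of 4. With replicate number as a block it was called for both in all 4, but the block called far more of all genes. It called 5360 of 11176 genes in proliferating cytosol and 2578 in proliferating membrane. In differentiating cytosol and membrane it called 5158 and 3315. The percentages of genes below are those without the block. Malat1 fell in polysomes of the proliferating cytosol by 2.72 on the log2 scale (SE 0.61, edgeR adjusted p = 0.00615), in a comparison that called 24.3% of genes and 12.8% as lower. In the proliferating membrane it fell by 2.83 (SE 0.54, edgeR adjusted p = 0.0359), where 0.796% of genes were called and 0.438% were called lower. In the differentiating cytosol it fell by 2.51 (SE 0.72, edgeR adjusted p = 0.0229), where 23.9% of genes were called and 11.3% were called lower. The calls were lost with fewer libraries while the differences kept their direction. Without replicate 2 of the cytosol polysomes, the first was -2.17 with an adjusted p of 0.0700, and without any single library of the pair of groups compared, the second was -3.25 to -2.61 (adjusted p-values of 0.105 to 0.239) and the third -2.94 to -2.12 (0.0638 to 0.140). The Malat1 difference in the differentiating membrane was -1.93 (SE 0.59, edgeR adjusted p = 0.0822), where 3.95% of genes were called. With the block its edgeR adjusted p was 0.00736.

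Neat1 differences between polysomes and monosomes were of similar size, with wider errors. They were -2.40 (SE 0.96) in the proliferating cytosol and -3.47 (SE 0.89) in the proliferating membrane, with edgeR adjusted p-values of 0.0870 and 0.0935. With the block they were -2.41 and -3.57 (edgeR adjusted p = 3.78e-06 and 6.53e-11). The proliferating membrane value ranked 32 from the lowest of 11176 genes. In differentiating cells they were -1.65 (SE 1.00, edgeR adjusted p = 0.257) in cytosol and -2.78 (SE 0.87, edgeR adjusted p = 0.0931) in membrane. With the block these were -1.83 and -2.51 (edgeR adjusted p = 0.00155 and 4.85e-08). DESeq2 called the Neat1 difference in 3 of the 4 comparisons, all but the differentiating cytosol. The differentiating membrane value without the block depended strongly on 1 library: without replicate 2 of the membrane monosomes, at 160.0 CPM, it was -0.71. Within each replicate number the polysome library was the lower one, at 6.39 against 23.9 CPM and 22.6 against 160.0 CPM. The polysome difference in membrane minus that in cytosol was -1.10 (SE 0.91) for Neat1 and 0.23 (SE 0.56) for Malat1, with edgeR adjusted p-values of 0.498 and 0.858, while 14.7% of genes were called in that test (3983 genes instead of 1641 with the block).

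Malat1 fell in the membrane fraction of differentiating cells, by 1.93 on the log2 scale against proliferating cells (SE 0.40, edgeR adjusted p = 0.00415; 23.2% of genes called, 13.6% as lower). Its differentiating membrane libraries, at 0.734 to 5.26 CPM, were below the proliferating ones of the same gradient part, which ranged over both parts from 2.43 to 33.9 CPM. Genes separated in this way were not counted. In the cytosol the Malat1 difference was -1.06 (SE 0.47) and not called (edgeR adjusted p = 0.151; 14.4% of genes called). Neat1 differed by -1.51 in membrane (SE 0.59, edgeR adjusted p = 0.0805) and by -0.32 in cytosol (SE 0.69, edgeR adjusted p = 0.801). The membrane value of Neat1 was called, at -2.54 (edgeR adjusted p = 0.0101), once replicate 2 of the differentiating membrane monosomes was left out. In bulk fractions, fewer cells of a type and less RNA per cell cannot be told apart.

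**Figure D2:**
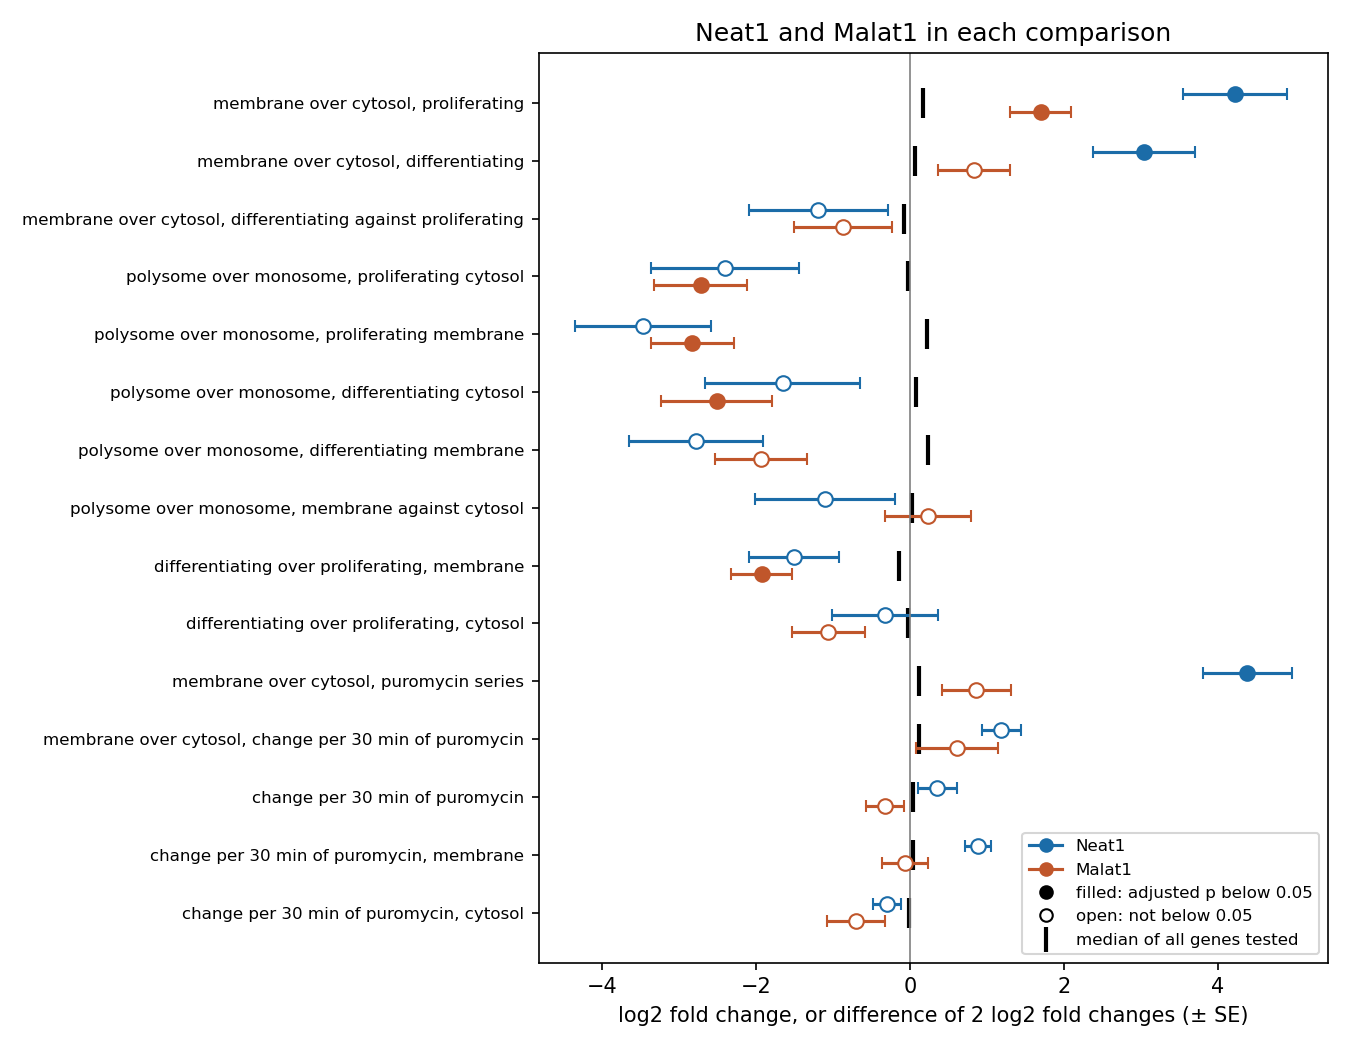
Log2 fold changes of Neat1 (blue) and Malat1 (orange) with their SE on the x axis, for each comparison on the y axis; filled points have an edgeR adjusted p below 0.05, and black ticks mark the median of all genes tested. Neat1 lies near 4 in both comparisons of membrane with cytosol in proliferating cells, and both RNAs lie left of 0 in all 4 comparisons of polysomes with monosomes.

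Puromycin exposure asked whether RNAs stay with the membrane once translation has been stopped. Neat1 in the membrane libraries had 125 CPM in untreated cells, then 174, 273 and 570 CPM at 0, 30 and 60 min. Its cytosol libraries held 15.4 CPM untreated, then 10.3, 7.44 and 9.27 CPM. Every membrane library was thus above every cytosol library, and the membrane level was higher at each later exposure. How many of all genes show either pattern was not counted. The first step, from 125 to 174 CPM, lay between single libraries that the tests coded alike as 0 min. The whole-fraction membrane library, made without puromycin, had 38.4 CPM, so single libraries without exposure time also differed. Exact 95% binomial intervals, which cover counting error only, ran from 119 to 132 CPM for untreated membrane and from 554 to 586 CPM at 60 min. The ratio of membrane to cytosol was 8.10 (95% interval 6.51 to 10.2) in untreated cells, 16.8 (13.3 to 21.5) at 0 min, 36.6 (29.1 to 46.8) at 30 min and 61.4 (48.3 to 79.4) at 60 min.

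Over the 4 exposures Neat1 was higher in membrane by 4.39 on the log2 scale (SE 0.58, edgeR adjusted p = 0.0164), rank 7 from the highest of 9919 genes, of which 25.5% were called and 11.6% were called higher. Leaving out any exposure gave 3.94 to 4.83 with adjusted p-values of 0.0522 to 0.0719, and no gene of the table was then called. The change of the membrane over cytosol difference was 1.19 per 30 min (SE 0.26), at an unadjusted p of 0.00340 and an edgeR adjusted p of 0.110, so that it was not called. That test called 0 of 9919 genes (0%), although 2535 had an unadjusted p under 0.05, DESeq2 called 1192 and leaving out an exposure gave up to 2611. Neat1 was called when exposed (30 and 60 min) was set against not exposed (1.94, edgeR adjusted p = 0.000401), where 3911 genes were called. It was also called with DESeq2 (1.18, adjusted p = 0.00497), and without the 30 min libraries (1.15, edgeR adjusted p = 7.39e-07) or the 60 min libraries (1.55, edgeR adjusted p = 0.00434). Slopes came from fits of all 8 libraries, which took the membrane and cytosol library of an exposure as separate and shared their spread. The Neat1 slope was 0.89 per 30 min in membrane (SE 0.17, edgeR adjusted p = 0.120, 0.0907% of genes called). In cytosol it was -0.30 (SE 0.19, edgeR adjusted p = 0.341, 0.0101% of genes called). Over both fractions it was 0.36 (SE 0.25, edgeR adjusted p = 0.776), where 0.423% of genes were called.

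Levels in CPM are shares of a library, and other RNAs moved in the same membrane libraries. The 14 listed mRNAs of secretory proteins took 3.88% of membrane reads in untreated cells, then 3.77%, 2.19% and 2.18% at 0, 30 and 60 min. In cytosol they took 0.184%, 0.131%, 1.93% and 1.90% in the same order. Their median change of the membrane over cytosol difference was -2.49 per 30 min, against 0.11 over all genes, and none of the 14 was called. What part these moves have in the Neat1 series was not tested.

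Malat1 did not follow that course in membrane. It had 2.32 CPM in untreated membrane and 2.54, 2.62 and 2.38 CPM at 0, 30 and 60 min. Its cytosol libraries held 2.72 CPM untreated and 1.10, 0.695 and 0.830 CPM at 0, 30 and 60 min, from 15, 8, 7 and 6 reads. The untreated cytosol library was the highest of the 8, and each exposed pair had more in membrane. The Malat1 fraction difference over the series was 0.86 (SE 0.45, edgeR adjusted p = 0.197) and its change per 30 min 0.61 (SE 0.53, edgeR adjusted p = 0.481). Its slopes were -0.07 (SE 0.30, edgeR adjusted p = 0.944) in membrane, -0.70 (SE 0.38, edgeR adjusted p = 0.270) in cytosol and -0.32 (SE 0.25, edgeR adjusted p = 0.788) over both. In the single libraries of whole fractions, Neat1 had 38.4 CPM in membrane (95% interval 33.6 to 43.6) and 5.78 CPM in cytosol (4.0 to 8.08), and Malat1 4.07 CPM in membrane (2.63 to 6.0) and 0.850 CPM in cytosol (0.276 to 1.98). The RNA-seq table of 3′ UTR parts listed none of the 3 genes.

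**Figure D3:**
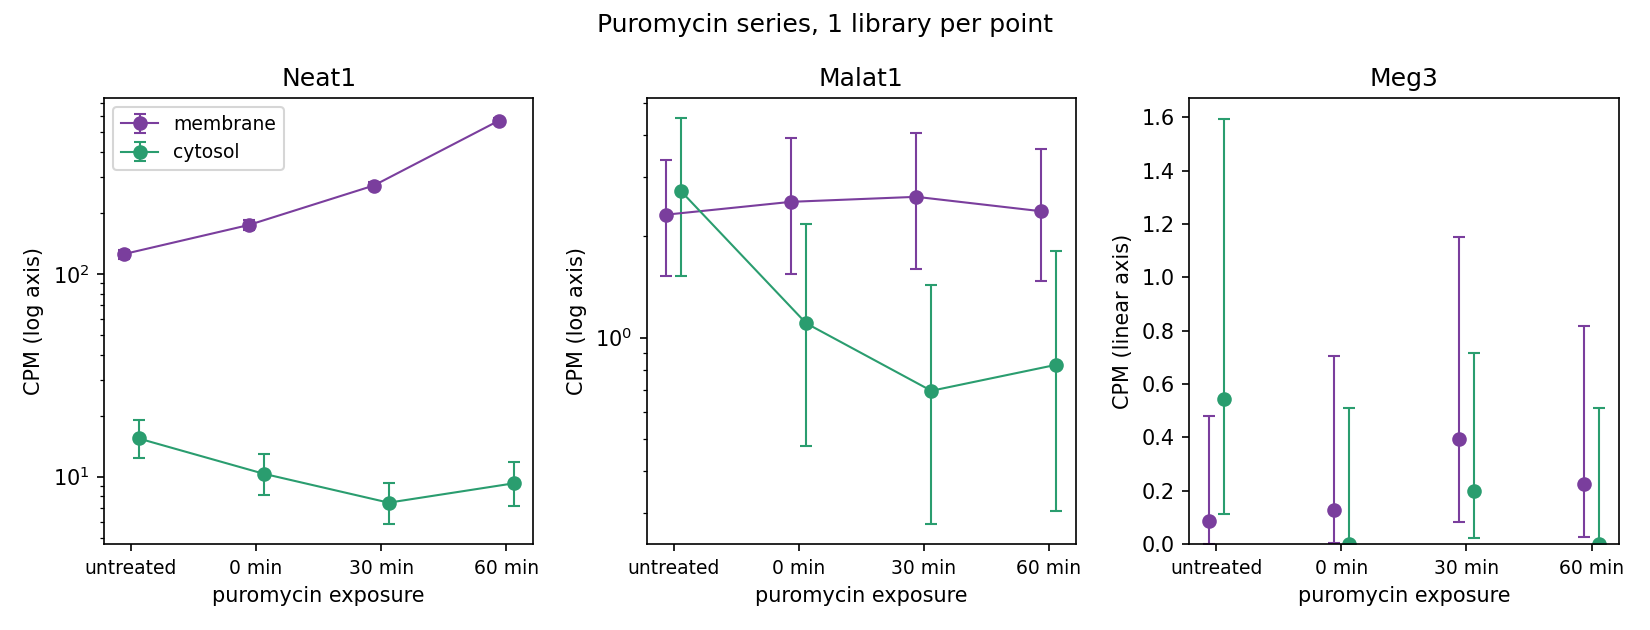
CPM of Neat1, Malat1 (log axes) and Meg3 (linear axis) at each puromycin exposure in membrane (purple) and cytosol (green), 1 library per point, with exact 95% binomial intervals. Neat1 in membrane stands at 570 CPM at 60 min while Malat1 in membrane keeps between 2.32 and 2.62 CPM.

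Meg3 was close to undetected in these membrane and cytosol fractions of C2C12 cells. No 3′ end library was labelled as nuclear or whole-cell RNA, so its level in whole cells was not measured. It had 0 reads in all 16 gradient libraries, differentiating ones included, and in both whole-fraction libraries. A count of 0 allows a level of up to 0.364 to 1.01 CPM per gradient library, taking 3 reads as the limit. Its 12 reads were all in the puromycin series: the membrane libraries had 1 read untreated, then 1, 3 and 2 reads at 0, 30 and 60 min, and the cytosol libraries had 3 reads untreated, then 0, 2 and 0. These counts do not exceed the 3-read limit, so no fold or test is given. The reads fell on 4 of its 16 sites, led by position 110806795 with 5 reads and position 110797399 with 4. Other genes of the Dlk1-Dio3 region were also scarce over the 26 libraries: Wdr25 had 165 reads, Dlk1, a transmembrane ligand related to Delta, 53, Mirg 46, Begain 34, Dio3 6 and Rian 5. Wars, a tRNA synthetase gene on the list of that region, had 5188 reads and was its only member tested. It was higher in polysomes of the proliferating cytosol (2.35, SE 0.41, edgeR adjusted p = 0.00150).

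Most reads of Neat1 ended at a single site, position 5842307, which lies farthest downstream and held 69.2% of them. The next site, 264 nt upstream at position 5842571, held 15.7%, and the sites 987, 1437 and 1168 nt upstream held 7.57%, 2.20% and 2.07%. Every library had reads at the main site. Its share was 70.7 ± 9.63% in membrane and 58.4 ± 24.9% in cytosol gradient libraries (SD, n = 8 each), where a cytosol library could hold as few as 7 Neat1 reads. In the puromycin series the share was 67.4 ± 9.49% in membrane and 65.8 ± 13.3% in cytosol (SD, n = 4 each). No Neat1 or Malat1 site that could be tested was called for a change in its share of the gene's reads between fractions, gradient parts or states. These tests called 1.08%, 1.86% and 1.17% of 15228 sites. Some errors were wide, as for the second Neat1 site in differentiating over proliferating cells, at 0.85 (SE 0.74). For the main Neat1 site the log2 change of usage was -0.0011 for membrane over cytosol, -0.04 for polysome over monosome (SE 0.43) and -0.27 for differentiating over proliferating cells (SE 0.54), all with an edgeR adjusted p of 1.00. The 3 Neat1 sites farther upstream and Malat1 site 5798341 had a gradient group without reads, so their usage was not tested.

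Malat1 ends were more scattered. Positions 5798394 and 5798341, only 53 nt apart, held 30.6% and 26.0% of its reads, and 34 of its 62 sites had fewer than 3 reads. The site at 5798394 held 39.9% of pooled Malat1 reads in membrane (147 of 368) and 21.5% in cytosol gradient libraries (17 of 79). In the puromycin series it held 11.4% in membrane (10 of 88) and 2.78% in cytosol (1 of 36). The test of its usage in membrane over cytosol gave -0.33 (SE 1.25, edgeR adjusted p = 1.00). The downstream-most site, at 5795690, had 26 reads in membrane and 0 in cytosol gradient libraries.

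**Figure D4:**
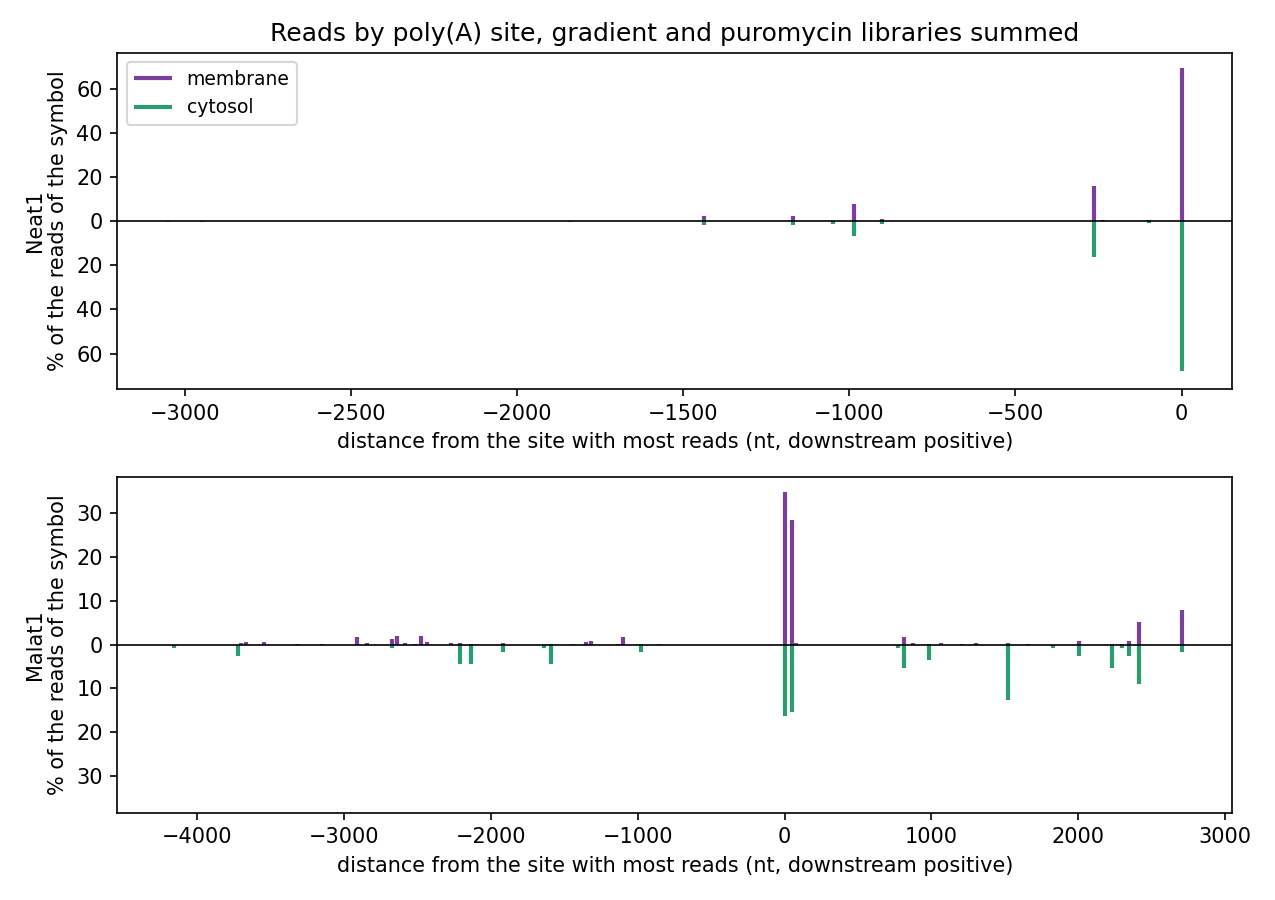
Share of the reads of Neat1 (upper panel) and Malat1 (lower panel) at each minus-strand poly(A) site, by distance from the site with most reads, with membrane above the line and cytosol below it; gradient and puromycin libraries are summed. Neat1 peaks at its downstream-most site in both fractions, and Malat1 at a pair of sites 53 nt apart.

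Other RNAs known from the nucleus did not all share the membrane bias. Of 20 listed noncoding RNAs, 6 were tested in the gradient fit; in proliferating cells 3 rose and 1 fell in membrane, with a median of 0.74 against 0.17 over all genes, of which 34.8% were called and 23.2% were called higher. In differentiating cells 1 of the 6, Peg13, rose (2.20, SE 0.33, edgeR adjusted p = 0.000400) and 0 fell (median 0.20 against 0.07 over all genes, 19.7% called), with Tug1 at 0.77 and Xist at 0.18, both uncalled. In proliferating cells Peg13, an imprinted RNA, rose by 2.52 (SE 0.32, edgeR adjusted p = 5.49e-05), Tug1 by 2.43 (SE 0.63, edgeR adjusted p = 0.00858) and Xist, which coats the inactive X chromosome, by 1.49 (SE 0.30, edgeR adjusted p = 0.00183). Pvt1 fell by 0.81 (SE 0.22, edgeR adjusted p = 0.0129). In the puromycin series 5 of the list were tested, and 3 were called higher in membrane and 0 lower. Their median was 1.35 against 0.12 over all genes, of which 11.6% were called higher. Pvt1 was the member that fell in polysomes in all 4 comparisons (log2 fold changes of -1.77, -2.27, -1.80 and -2.15 in proliferating membrane, proliferating cytosol, differentiating cytosol and differentiating membrane). Of the 6 RNAs, 2 were called lower in proliferating cytosol and 1 in each other comparison. Of all genes, 0.438%, 12.8% and 11.3% were called lower in the first 3 of these comparisons, and 3.95% were called in either direction in the last. In differentiating against proliferating cells, Xist fell by 2.60 in membrane (SE 0.32, edgeR adjusted p = 0.000146), where 13.6% of genes were called lower. In that comparison in cytosol it fell by 1.29 (SE 0.32, edgeR adjusted p = 0.0164), where 14.4% of genes were called.

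Of 23 listed mRNAs known to be held back in the nucleus, 17 were tested, and 4 rose and 0 fell in the proliferating membrane (median 0.30), a share near the 23.2% of all genes called higher. Ddx5, an RNA helicase, rose by 1.09 (SE 0.19, edgeR adjusted p = 0.000574) and Ogt, the enzyme that adds O-GlcNAc, by 1.47 (SE 0.28, edgeR adjusted p = 0.00104), while the cyclin genes Ccnl1 and Ccnl2 differed by -0.03 and 0.23. All 14 listed secretory mRNAs rose in membrane in that comparison (median 3.86; 23.2% of all genes called higher). The Neat1 value of 4.23 was above that median.

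H19, a cytoplasmic noncoding RNA of muscle precursors, also fell in polysomes but was not called between membrane and cytosol. It differed by 0.10 between membrane and cytosol of proliferating cells (SE 0.52, edgeR adjusted p = 0.907). H19 fell in polysomes of the proliferating cytosol, with a log2 fold change of -3.11 (SE 0.79, edgeR adjusted p = 0.0131). The 2 cytoplasmic noncoding RNAs tested, H19 among them, were called lower in polysomes there and in differentiating cytosol and membrane (medians -3.90, -4.28 and -3.35). In these cytosols 12.8% and 11.3% of all genes were called lower, and in that membrane 3.95% were called. In membrane of differentiating against proliferating cells H19 rose by 4.25 (SE 0.59, edgeR adjusted p = 0.000358), where Malat1 fell.

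The genes beside Neat1 and Malat1 on chromosome 19 had no fraction difference in common. Frmd8, whose minus-strand sites lie next upstream of Neat1 in the table, differed by -0.02 between membrane and cytosol (SE 0.23, edgeR adjusted p = 0.968). Of the 14 neighbours tested in proliferating cells, 2 rose and 1 fell, with a median of 0.18 against 0.17 over all genes, a smaller share than the 34.8% of all genes called. Ltbp3, which codes for a secreted TGF-beta binding protein, rose by 2.70 (SE 0.28, edgeR adjusted p = 1.11e-05).

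Genes for the proteins of the bodies were measured as mRNAs. Of 23 paraspeckle protein genes tested, 7 fell and 1 rose in membrane of differentiating against proliferating cells (median -0.39 against -0.14 over all genes). Sfpq was among those that fell, by 1.28 (SE 0.25, edgeR adjusted p = 0.00286). Of 22 nuclear speckle protein genes, 11 fell and 0 rose (median -0.75), with Srsf2, a splicing factor, lower by 1.20 (SE 0.22, edgeR adjusted p = 0.00185). In that comparison 13.6% of all genes were called lower. Between membrane and cytosol of proliferating cells, 2 paraspeckle genes rose and 2 fell, and 5 speckle genes rose and 3 fell, where 34.8% of all genes were called and 23.2% were called higher.

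Across the 16 gradient libraries, Neat1 and Malat1 had a Pearson correlation of 0.78 on the log2 CPM scale. The genes most like Neat1, among 6632 genes with a mean of at least 10 CPM, were Lpar6 (0.93), Pigm (0.92), Msl2 (0.90), Fam193b (0.89) and Irs1 (0.89). Those most like Malat1 were Slc25a37 (0.92), Slc9a5 (0.91), Zbtb6 (0.90), Lysmd3 (0.89) and Sap25 (0.86). These correlations describe libraries that share fraction, gradient part and state.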

How the data were processed

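The deposited table gave read counts per poly(A) site, with 1 column per library, per the file headers; the submitters' processing notes named mm9, cutadapt, Bowtie2 and STAR 2.5.2 with no role given, and how the authors counted reads is not given in the sources used here. Positions under more than 1 symbol (651, with 0.560% of reads) were left out, and counts were summed over the sites of a symbol. Low genes were removed by filterByExpr. The main test was edgeR 4.0.16 (R 4.3.3): TMM scaling, robust dispersions, quasi-likelihood F statistics and Benjamini-Hochberg adjusted p-values below 0.05 among all genes. A single model with 8 group means covered the 16 gradient libraries. For the 8 puromycin libraries, exposure and fraction were the terms of the fraction difference, fraction by minutes (per 30 min, untreated as 0 min) was added for its change, and slopes used fraction and minutes. Each SE is the absolute log2 fold change over the root of F. Site usage was tested with diffSpliceDGE of edgeR; sites without reads in a gradient group got no value. DESeq2 1.42.0, a replicate block, other scaling, no filter and leaving out each library were alternatives. Fits were tested on simulated data with 1 fixed dispersion and no deviations shared by replicate number. Changes were set only in genes or sites above a minimum mean level. Recovery at the replicate spread of Neat1 or the low counts of Malat1 was not measured. For membrane over cytosol in proliferating cells, 100% of 200 genes set to differ by 2.0 on the log2 scale were recovered. The fit of fraction by minutes recovered 47.5% of 200 genes set to differ by 1.0 per 30 min. For site usage in membrane over cytosol, 79.5% of 200 sites were recovered, at a true log2 value of 1.12.

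Members and lists were chosen with earlier results of these data known. Named were the 3 members, their sites with at least 1% of reads, the 5 genes of highest correlation, and per list the most abundant members and those with the lowest p; Sfpq, Frmd8 and the scarce Dlk1-Dio3 genes were chosen after their values were seen. Deviations of libraries with the same replicate number correlated at 0.60 to 0.82 in all 12 pairs of groups of a state. The numbers were therefore taken as pairing the 4 membrane and cytosol pairs of a state, in the library ratios and the replicate block only. The main gradient model left this pairing out. It comes from the data, not the labels. Intervals are exact binomial. The RNA-seq counts, deposited per the file headers for 3′ UTR parts of 11735 genes, were looked up only.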

Additional observations from a re-analysis of the deposited data

Results flagged for a closer look

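The membrane over cytosol difference of Neat1 was smaller in differentiating than in proliferating cells by -1.36 on the log2 scale in the fit with replicate number as a block (edgeR adjusted p = 0.0279), and the test of the difference between the states is what singled it out. Without the block the value was -1.19 and was not called (edgeR adjusted p = 0.985). Leaving out 1 library at a time it ranged from -2.22, without replicate 2 of the differentiating membrane monosomes, to -0.61, without replicate 1 of the proliferating membrane polysomes, and was never called. All 4 membrane libraries of each state were above the cytosol library of the same part and number, 12.1-fold to 38.7-fold in proliferating and 5.33-fold to 21.6-fold in differentiating cells. Genes with this pattern were not counted.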

How the results depend on the processing

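Of 420 alternative values for 33 results on Neat1, Malat1 and the main Neat1 site, 371 kept direction and side of the threshold, 13 lost the call, 19 gained it and 17 changed sign. With replicate number as a block, Neat1 was called lower in polysomes in all 4 comparisons (-2.41 in proliferating cytosol, -3.57 in proliferating membrane, -1.83 in differentiating cytosol and -2.51 in differentiating membrane), lower in differentiating membrane (-1.81) and smaller in its fraction difference in differentiating cells (-1.36). The block also called Malat1 lower in differentiating membrane polysomes (-1.93), and it changed no other call. DESeq2 called the polysome difference of Neat1 in proliferating cytosol (-2.52), proliferating membrane (-3.66) and differentiating membrane (-2.93), that of Malat1 in differentiating membrane (-2.11), and the change per 30 min of Neat1 in the fraction difference (1.18) and in membrane (0.82). Exposed against not exposed gave calls of 1.94 and 1.38 for these changes, and no filter gave 0.88 in membrane. Site usage was never called: with the block the log2 change was 0.094 for membrane over cytosol at the main Neat1 site and -0.059 for polysomes at its second site, and with sites of at least 10 reads it was 0.050 and 0.027 at the main Neat1 site and 0.24 and -0.098 at Malat1 site 5798394, all opposite in sign to the values of the report.

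Leaving out 1 library, the Malat1 polysome difference ranged from -3.60 to -2.17 in proliferating cytosol, from -3.25 to -2.61 in proliferating membrane and from -2.94 to -2.12 in differentiating cytosol, and in membrane against cytosol from -0.072 to 0.67. Neat1 in differentiating cells ranged from -2.54 to -0.94 in membrane and from -0.71 to 0.095 in cytosol. Leaving out 1 exposure, the Neat1 fraction difference ranged from 3.94 to 4.83 and its change from 0.83 to 1.55, and the Malat1 membrane slope from -0.17 to 0.072. Usage ranged, for membrane over cytosol, from -0.094 to 0.32 and from -0.18 to 0.71 at the Neat1 sites and from -1.19 to 1.14 at Malat1 site 5798394. For polysomes these ranges were -0.36 to 0.21, -0.54 to 0.53 and -0.42 to 1.53, and for differentiation the Malat1 site gave -0.34 to 2.10. A group left with 1 library was assumed to vary like the others.

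Counts of all genes called also moved. The block gave 5360, 2578, 5158 and 3315 genes in the polysome comparisons of proliferating cytosol, proliferating membrane, differentiating cytosol and differentiating membrane, against 2714, 89, 2673 and 442 without it, and 5600 and 4269 for differentiation in membrane and cytosol, against 2592 and 1614. It gave 597, 727 and 697 sites, against 164, 283 and 178. DESeq2 gave 370 and 940 genes in the membrane polysome comparisons and 4148 in the puromycin series, against 2534. The puromycin slopes called 115 genes with DESeq2, 64 without a filter and 9 for exposed cells, against 42; in membrane 96, 55 and 840, against 9; and in cytosol 1618, 449 and 2403, against 1; DESeq2 size factors gave 0 in membrane and 0 in cytosol. Leaving out 1 library gave 1262 to 1720, 0 to 25, 1493 to 1776 and 10 to 84 genes in the polysome comparisons in the order above, 1343 to 2141 and 803 to 1489 for differentiation in membrane and cytosol, 79 to 148 and 100 to 181 sites for fraction and differentiation, and, leaving out 1 exposure, 0 in the puromycin series and 0 to 1, 0 to 4 and 0 to 1215 for the slopes over both fractions, in membrane and in cytosol. Low Malat1 and Meg3 counts limit what these depths can show. The cause of these changes was not tested.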
